A study of Mus musculus with 14 samples.

Results

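Activated mouse CD4 T cells cultured toward follicular helper T (Tfh) cells were compared between a culture with added TGF-β and a culture in which TGF-β was blocked, over all genes. The comparison takes 9 of the 14 bulk RNA sequencing libraries of the series, chosen by the condition in their labels. Tfh5 cells received 5 ng/ml TGF-β (5 libraries, replicates 1 to 5), and TfhA cells received an antibody against TGF-β (4 libraries, replicates 1, 2, 4 and 5). Both groups started from naive CD4 cells of C57BL/6 mice with no other genotype given, grew for 3.5 days on plate-bound antibodies to CD3 and CD28, and were stained and sorted before lysis. The sources used here give neither the other additives of the cultures nor the sort gate. The remaining 5 libraries, Th1 cells, entered the same statistical fit and the filter that chose the tested genes. They are otherwise left aside. No label ties a library to an animal or a culture of its own. P-values therefore measure only the spread between these samples, which may be technical.

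TGF-β binds a receptor pair with kinase activity, which phosphorylates SMAD2 and SMAD3. These join SMAD4 in the nucleus, and among their targets are genes whose products shut the pathway down. In CD4 T cells, TGF-β restrains the Th1 programme driven by T-bet (Tbx21), and with inflammatory cytokines it promotes Th17 cells, which secrete interleukin-17. Tfh cells depend on Bcl6, carry the follicle-homing receptor CXCR5 and help B cells in germinal centres. The transcription factor c-Maf (Maf) acts in both Tfh and Th17 cells, and the series title puts it between TGF-β and these fates.

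The upstream sequences of 4 genes at the poles of the comparison are shown first, because they are the stretches on which the factors named above could be looked for: the interleukin-17 genes Il17a and Il17f, which rose, and the Th1 regulator Tbx21 and granzyme B gene Gzmb, which fell. Each run is the 250 bases before the annotated start of transcription, from RefSeq on GRCm38.p6 (the mm10 build), written 5′ to 3′ on the gene's strand. Capitals mark matches, on either strand, to any of 9 motifs whose letters are spelled out with their shares near the end. Maf and Cxcr5 have no entry in the table used.
Il17a, chr1:20730655-20730904, plus strand: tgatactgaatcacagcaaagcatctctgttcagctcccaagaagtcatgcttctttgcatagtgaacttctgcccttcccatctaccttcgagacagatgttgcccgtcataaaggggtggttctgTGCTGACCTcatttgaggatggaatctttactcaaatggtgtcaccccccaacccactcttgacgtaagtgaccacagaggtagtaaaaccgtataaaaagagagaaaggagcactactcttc
Il17f, chr1:20784271-20784520, minus strand: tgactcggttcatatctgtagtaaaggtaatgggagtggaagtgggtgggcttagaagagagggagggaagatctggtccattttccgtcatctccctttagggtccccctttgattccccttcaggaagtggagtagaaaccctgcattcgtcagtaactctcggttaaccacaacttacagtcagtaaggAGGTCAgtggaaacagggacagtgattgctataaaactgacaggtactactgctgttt
Tbx21, chr11:97115332-97115581, minus strand: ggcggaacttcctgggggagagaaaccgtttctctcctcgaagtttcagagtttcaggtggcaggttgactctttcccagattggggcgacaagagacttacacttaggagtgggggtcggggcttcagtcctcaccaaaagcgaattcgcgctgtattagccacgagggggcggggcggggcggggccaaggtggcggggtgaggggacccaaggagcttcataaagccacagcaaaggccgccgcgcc
Gzmb, chr14:56262335-56262584, minus strand: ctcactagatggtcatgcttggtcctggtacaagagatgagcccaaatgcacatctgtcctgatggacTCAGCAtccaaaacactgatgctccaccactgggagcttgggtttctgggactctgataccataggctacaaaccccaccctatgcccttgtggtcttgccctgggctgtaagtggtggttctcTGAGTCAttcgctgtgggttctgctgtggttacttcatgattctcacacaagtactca
The Il17a window held a short MAF site 123 to 118 bases before the start and, sharing 3 of its bases, a ROR core at 120 to 115. The Il17f window held a ROR core at 58 to 53. The Gzmb window held an AP-1 site at 58 to 52 and a short MAF site at 182 to 177, and the Tbx21 window held none of the 9. A match describes letters only, and binding was not measured in these libraries.

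Library totals overlapped between the groups, 9766313 to 13316633 counts in Tfh5 and 8805921 to 13027721 in TfhA (exact permutation test, two-sided, p = 0.778). Tfh5 libraries had fewer genes with at least 1 count (14127 to 14805 against 14864 to 15597) and a larger share of counts from the mitochondrial genome (7.29% to 8.54% against 4.07% to 7.01%). Neither measure overlapped (exact permutation tests, two-sided, p = 0.00794 each, 0.0198 adjusted over 5 library measures). Both moved with the culture condition, and their part in the gene results was not tested. On the 500 most variable genes the first principal component of the 9 libraries carried 94% of the variance and separated the groups. Levels below are CPM, read counts relative to the library total, scaled for library composition by TMM, as mean ± SD with n = 5 for Tfh5 and n = 4 for TfhA. Log2 fold changes are Tfh5 minus TfhA, ± SE, and adjusted p-values come from the edgeR quasi-likelihood F test, two-sided, with Benjamini-Hochberg adjustment over all 13075 tested genes. A gene is said to have risen or fallen where its adjusted p was under 0.05.

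A panel of genes places the cells. The cells carried the transcripts of CD4 T cells in both cultures. The co-receptor Cd4 stood at 429, 412, 358 and 397 CPM in TfhA replicates 1, 2, 4 and 5 and at 560.0, 572, 541, 504 and 561 CPM in Tfh5 replicates 1 to 5, a 1.37-fold rise (adjusted p = 4.97e-05). Cd3e, a chain of the T cell receptor complex, rose 1.49-fold, from 653 ± 131 to 972 ± 94.4 CPM.

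Among the Tfh genes of the panel, Maf stood at 32.3, 28.8, 29.9 and 35.7 CPM in the TfhA libraries and at 1312, 1314, 1298, 1608 and 1561 CPM in the Tfh5 libraries. The lowest Tfh5 library lay far above the highest TfhA library, and the log2 fold change was 5.49 ± 0.18 (adjusted p = 4.11e-18). Cxcr5 read 2.197, 2.13, 2.81 and 0.637 CPM in TfhA and 73.9, 87.6, 76.9, 73 and 85 CPM in Tfh5 (log2 fold change 5.33 ± 0.24). Its transcript was low in every library with TGF-β blocked and far higher in every library with TGF-β. Bcl6, the repressor on which Tfh cells depend, read 18.8, 22.3, 11.5 and 12.8 CPM in TfhA and 79.1, 115, 106, 102 and 123 CPM in Tfh5. Tcf7, which encodes the transcription factor TCF-1, read 727, 782, 524 and 600.1 CPM in TfhA and 2024, 1948, 1991, 2274 and 2165 CPM in Tfh5. For both genes the groups did not overlap, with log2 fold changes of 2.67 ± 0.18 and 1.66 ± 0.12.

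The Th17 genes of the panel rose as well. Il17a gave 0.682, 0.171, 0.433 and 0.425 CPM in TfhA, a few counts per library, and 317, 302, 260.2, 314 and 393 CPM in Tfh5. Il17f gave 18.9, 12.5, 9.96 and 18.9 CPM in TfhA and 2892, 3311, 3126, 3201 and 3839 CPM in Tfh5, so that it was detected in every library of both cultures. Rora, which encodes the nuclear receptor RORα, read 17, 16.2, 13 and 16.7 CPM in TfhA and 28.3, 100.3, 77, 102 and 114 CPM in Tfh5, with replicate 1 far below the other 4 Tfh5 libraries but still above all of TfhA (log2 fold change 2.42 ± 0.26, adjusted p = 1.76e-08).

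Tbx21 moved the other way, from 69.4, 61.5, 63.3 and 52.3 CPM in the TfhA libraries to 1.904, 2.24, 2.36, 1.33 and 1.64 CPM in the Tfh5 libraries (log2 fold change -5.03 ± 0.15, adjusted p = 1.84e-18). Foxp3, the regulator of regulatory T cells, read 2.35, 2.39, 3.57 and 0.637 CPM in TfhA and 3.62, 5.81, 3.02, 5.79 and 2.69 CPM in Tfh5. Its ranges overlapped and it did not pass (log2 fold change 0.89 ± 0.43, adjusted p = 0.0819), although it passed without TfhA replicate 4 (adjusted p = 0.043), with no filter on low counts (adjusted p = 0.037) and with replicate number as a block (adjusted p = 0.00485). Smad7, an inhibitor that the pathway itself induces, read 15.1, 13.4, 11.9 and 19.3 CPM in TfhA and 95.4, 108, 86.5, 79.7 and 108 CPM in Tfh5 (log2 fold change 2.68 ± 0.14). The type I receptor gene Tgfbr1 read 20.8, 15.2, 18.2 and 22.3 CPM in TfhA and 134, 138, 112, 151 and 145 CPM in Tfh5 (log2 fold change 2.83 ± 0.13). In bulk RNA, fewer cells of a type and less RNA per cell cannot be told apart, for these genes and for those below.

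**Figure D1:**
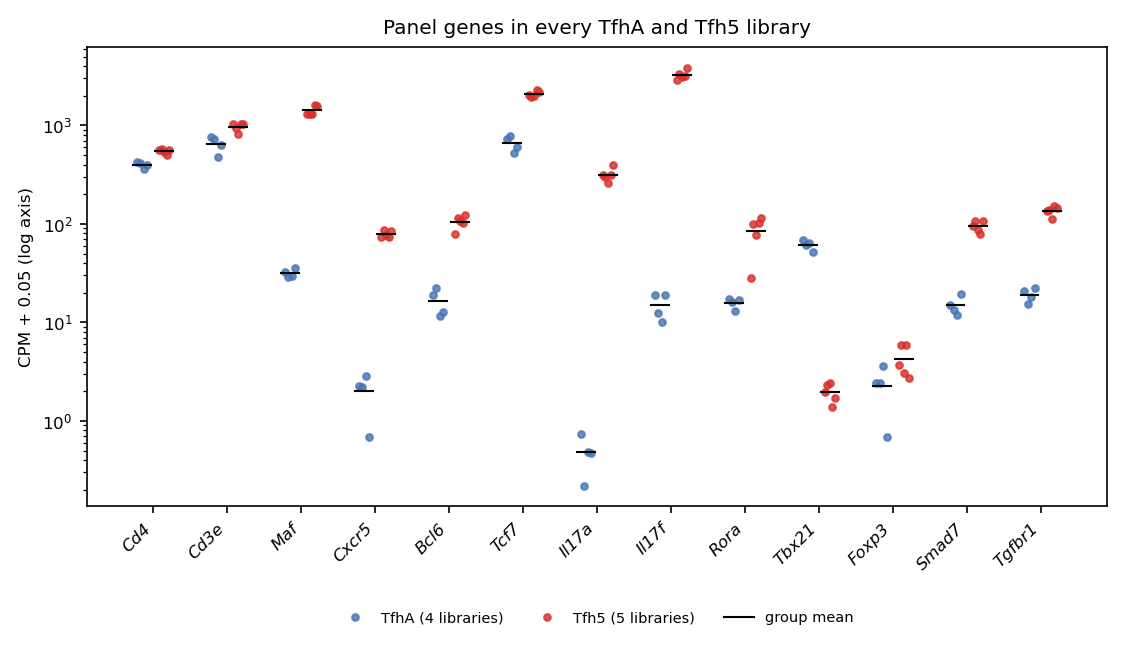
Level of each panel gene in every library, as CPM + 0.05 on a log axis, with 1 point per TfhA library (4) and Tfh5 library (5) and a bar at each group's mean. Foxp3 overlaps between the groups, Rora has a Tfh5 library set low, and Maf, Cxcr5, Il17a and Il17f stand apart the farthest upward.

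The comparison was broad. Of 13075 tested genes, 3586 rose (27.4%) and 3934 fell (30.1%), 57.5% in all. With a difference of at least 2-fold, 1381 rose (10.6%) and 1716 fell (13.1%). In 44.2% of tested genes, called or not, all libraries of a group lay above all of the other. These shares are the background for every count below. Past 10-fold there were 238 genes higher and 332 lower, past 32-fold 101 and 124, and past 100-fold 42 and 45. By the larger group mean, the share called was 24.7% under 1 CPM, 46.9% from 1 to 10 CPM and 60.2% from 10 to 100 CPM. It was 70.3% from 100 to 1000 CPM and 65.2% above that, so calls were fewer where counts were low. Of 588 genes under 1 CPM, 15 rose and 130 fell. The filter also used the Th1 libraries, so genes low in both groups could enter this band through Th1 cells. The part of the filter in this split was not tested. In the fit on only the Tfh5 and TfhA libraries, 12371 genes were tested. Past 2-fold, that fit gave 1336 genes higher and 1462 lower, against 1381 and 1716 with the Th1 libraries. The median log2 fold change over all 13075 tested genes was -0.01.

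A small set of genes was measured as close to equal: for 380 genes (2.91%) the 95% interval of the fold change lay between 1.2-fold lower and 1.2-fold higher. The 6 of these at the highest levels encode housekeeping products or a chromatin organizer. They were cytoplasmic actin (Actb, 6151 ± 946 CPM in Tfh5 and 6150.2 ± 369 in TfhA), the ribosomal proteins Rplp0 and Rpl4, the translation elongation factors Eef2 and Eef1b2, and Satb1 (1942 ± 51.2 and 1945 ± 173 CPM).

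**Figure D2:**
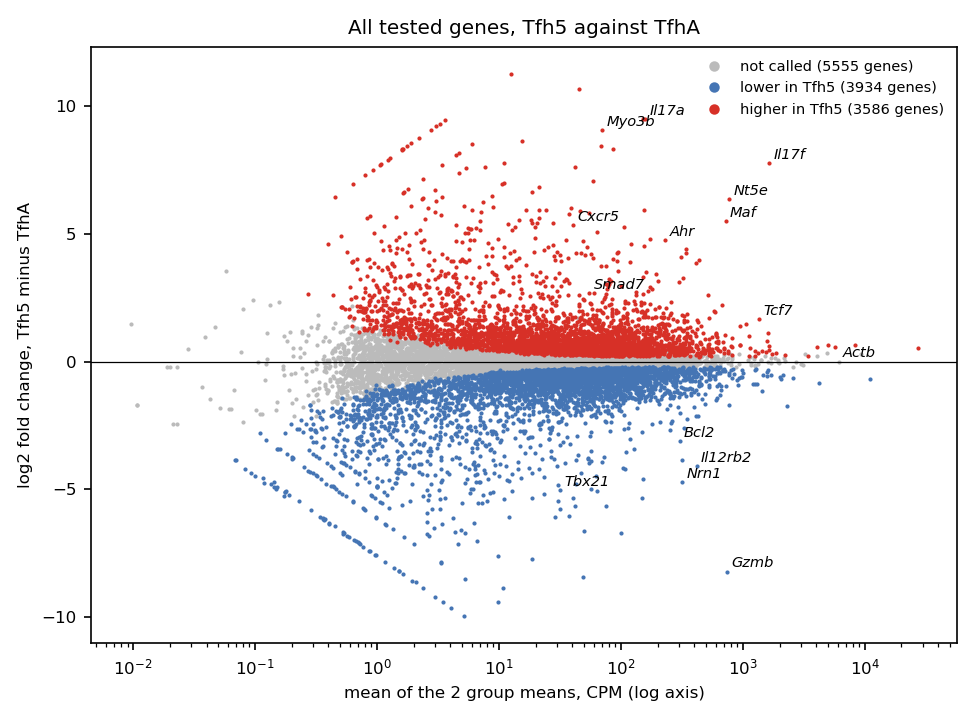
Log2 fold change, Tfh5 minus TfhA, of all 13075 tested genes against the mean of both group means in CPM (log axis), 1 point per gene, coloured by call. Points past the threshold lie at all levels in both directions (3586 higher and 3934 lower), with Actb near 0.

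The TGF-β pathway itself was split by role. The receptors, SMAD transducers and inhibitors of the pathway were mostly higher with TGF-β, whereas the ligands and their activators went both ways. Of 12 tested genes for ligands and activators, 4 rose, 3 fell and 5 did not pass. The ligand gene Tgfb1 was at 333 ± 40.7 CPM in Tfh5 and 328 ± 59.2 CPM in TfhA and did not pass (log2 fold change 0.02 ± 0.12). Tgfb3, a second ligand, rose from 3.55 ± 0.689 to 16 ± 4.03 CPM. Furin, the protease that cuts the TGF-β precursor, rose 5.07-fold, and Thbs1, whose product thrombospondin can activate latent TGF-β, rose 10.8-fold. Itgav, the integrin chain that binds latent TGF-β, rose 1.45-fold. The genes that hold latent TGF-β at the cell surface moved down: Lrrc32 (GARP) fell from 36 ± 7.11 to 6.75 ± 2.26 CPM and Nrros from 42.7 ± 3.57 to 18.8 ± 4.43 CPM. Inhba, a subunit of the related ligand activin, fell 5.93-fold.

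Of 10 receptor genes tested, 8 rose, 1 fell and 1 did not pass, with a median log2 fold change of 0.99. Acvr2a, a type II receptor for activins, showed the highest fold change of the list: 9.17, 8.702, 7.04 and 11.7 CPM in the TfhA libraries against 211, 182, 177, 185 and 149.9 CPM in the Tfh5 libraries (19.8-fold higher). Tgfbr2, the type II receptor that binds TGF-β, rose 3.74-fold to 349 ± 16.3 CPM, and Bmpr2, a receptor for bone morphogenetic proteins, 3.98-fold. Acvrl1 and the co-receptor Eng rose 2.08-fold and 1.89-fold. Acvr1b rose 1.52-fold. Bmpr1a rose 1.22-fold, a call that was lost without any 1 of 6 libraries (TfhA replicate 1, 2 or 4, or Tfh5 replicate 1, 3 or 5, adjusted p 0.0638 to 0.155). The co-receptor betaglycan (Tgfbr3) fell 1.299-fold.

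Of 10 genes for SMAD transducers and their adaptors, 9 rose and 1 fell, but the changes were small (median log2 fold change 0.54). Smad2 rose 1.46-fold and Smad3 1.61-fold, and both transmit TGF-β signals. Smad4, the shared partner, rose 1.29-fold. Smad1 and Smad5, which act downstream of bone morphogenetic proteins, rose 1.42-fold and 1.91-fold. Zfyve16 and Tgfbrap1, which bind SMADs or receptors on endosomes, rose 1.49-fold and 1.45-fold, and Trim33, a SMAD-binding ubiquitin ligase, 1.28-fold. The exception, Smad9, had no count in Tfh5 and 15 counts in all of TfhA (0.353 CPM). In the fit on only the 9 Tfh5 and TfhA libraries, no gene of this list fell.

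Inhibitors of the pathway gave the largest shift of the 4 roles by median: of 13 tested, 10 rose and none fell (median log2 fold change 1.59). Beside Smad7, the membrane protein gene Ldlrad4, which keeps SMADs from the receptor, read 1.67, 3.67, 1.41 and 0.743 CPM in TfhA and 102, 107, 101, 108 and 121 CPM in Tfh5. Skil and Ski, nuclear corepressors of SMADs, rose 9.001-fold and 3.02-fold. Tgif1, another corepressor, rose 6.06-fold, and Pmepa1, which also withholds SMADs from the receptor, 4.94-fold. Smad6 rose from 0.172 ± 0.146 to 2.24 ± 0.777 CPM. The ubiquitin ligases Smurf1 and Smurf2 rose 2.08-fold and 1.59-fold, and the phosphatase Ppm1a 1.397-fold. Nedd4l, Tgif2 and Bambi did not pass.

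**Figure D3:**
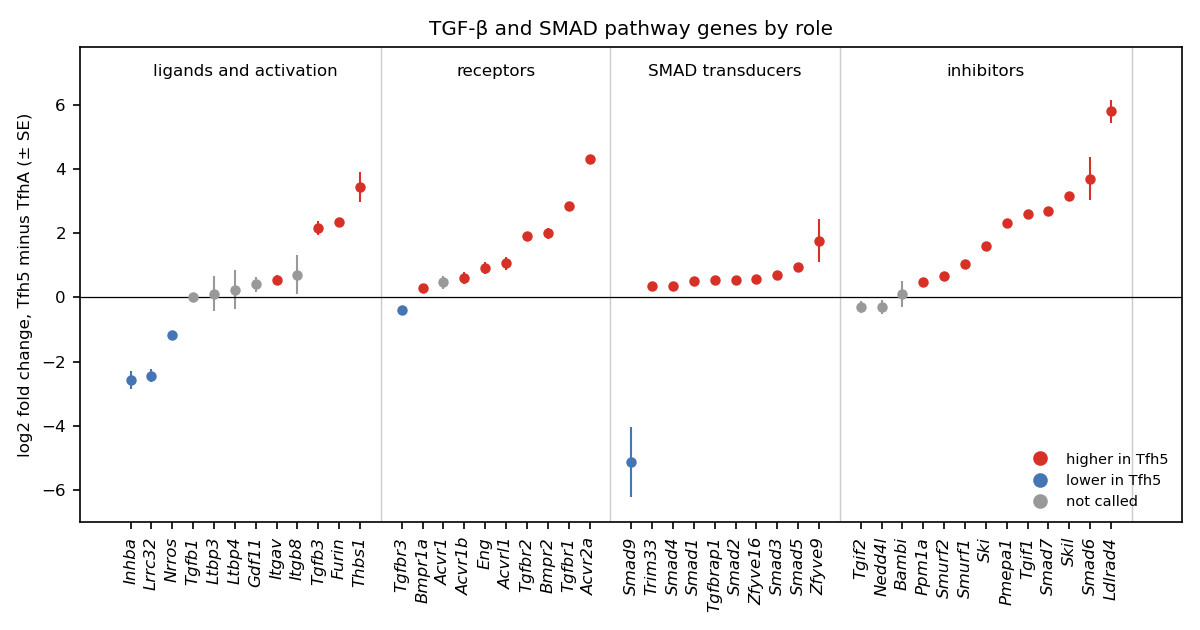
Log2 fold change, Tfh5 minus TfhA, ± SE, of every tested gene of the TGF-β and SMAD pathway, grouped by role and coloured by call. Among inhibitors 10 of 13 rose and none fell, among receptors 8 of 10 rose, and among ligands and activators 4 rose and 3 fell.

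Genes described as TGF-β targets in T cells or other cells gave 10 higher, 5 lower and 2 not passing of 17 tested. Nt5e, the ectoenzyme CD73 that makes adenosine, read 21.4, 19.96, 12.9 and 19.7 CPM in TfhA and 1365, 1843, 1522, 1372 and 1526 CPM in Tfh5. The chemokine receptor gene Ccr8 rose from 4.21 ± 1.69 to 81.4 ± 14 CPM, and Klf10, an early TGF-β response gene, 3.66-fold. Tgfbi, a secreted matrix protein, rose from 0.155 ± 0.186 to 10.1 ± 1.84 CPM (68-fold, and 148-fold without TfhA replicate 5). Other classical targets moved down. The cell cycle inhibitor Cdkn1a fell 5.26-fold, Id3 3.24-fold and Junb 1.73-fold.

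The genes with the smallest p-values were taken among genes that reached 10 CPM in either group and whose libraries did not overlap, which is a choice by the result and serves only as a description. Among the 10 that rose were Myo3b, Ahr, Ccl20, Cldnd1, Adam19, Pdpn, Peli2, Prss12 and Lpar6. Ahr, the receptor for aryl hydrocarbons and tryptophan metabolites, read 18.3, 17.2, 11.9 and 19.1 CPM in TfhA and 411, 438, 407, 463 and 512 CPM in Tfh5. The membrane metalloprotease gene Adam19 read 34.4 ± 4.64 CPM in TfhA and 593 ± 28.7 CPM in Tfh5 (17.3-fold). Pdpn, the glycoprotein podoplanin, rose from 0.4201 ± 0.249 to 83.4 ± 10.7 CPM, and Prss12, a secreted serine protease, from 0.833 ± 0.633 to 118 ± 11 CPM, 132-fold with all libraries and 220.0-fold without TfhA replicate 1. Peli2, a ubiquitin ligase of the Pellino family, was at 0.361 ± 0.265 CPM in TfhA and 138 ± 16.3 CPM in Tfh5 (347-fold, and 573-fold without TfhA replicate 1). Cldnd1, a membrane protein, rose 14.5-fold, Lpar6, a receptor for lysophosphatidic acid, 27.4-fold, and Myo3b, an unconventional myosin, from 0.2499 ± 0.108 to 141 ± 18.9 CPM.

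The 10 that fell were Nrn1, Tnfsf8, Slamf7, Tbx21, Nkg7, Slc17a6, Ifih1, Il12rb2, Gimap7 and Il1r2. Nrn1, the small membrane-anchored protein neuritin, read 599, 721, 553 and 568 CPM in TfhA and 23.5, 25, 26.3, 25.2 and 17.6 CPM in Tfh5. Tnfsf8, the ligand of CD30, read 310.2, 308, 211 and 328 CPM in TfhA and 9.05, 11.2, 13.5, 10.8 and 14.7 CPM in Tfh5. Slamf7, a receptor of the SLAM family, fell from 103 ± 10.5 to 6.48 ± 0.406 CPM. Slc17a6, a vesicular glutamate transporter, fell 40.2-fold, and Ifih1, the RNA sensor MDA5, 32-fold. Il12rb2, the signalling chain of the interleukin-12 receptor, read 794 ± 146 CPM in TfhA and 46.4 ± 6.44 CPM in Tfh5. Il1r2, the decoy receptor for interleukin-1, fell 22.9-fold.

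**Figure D4:**
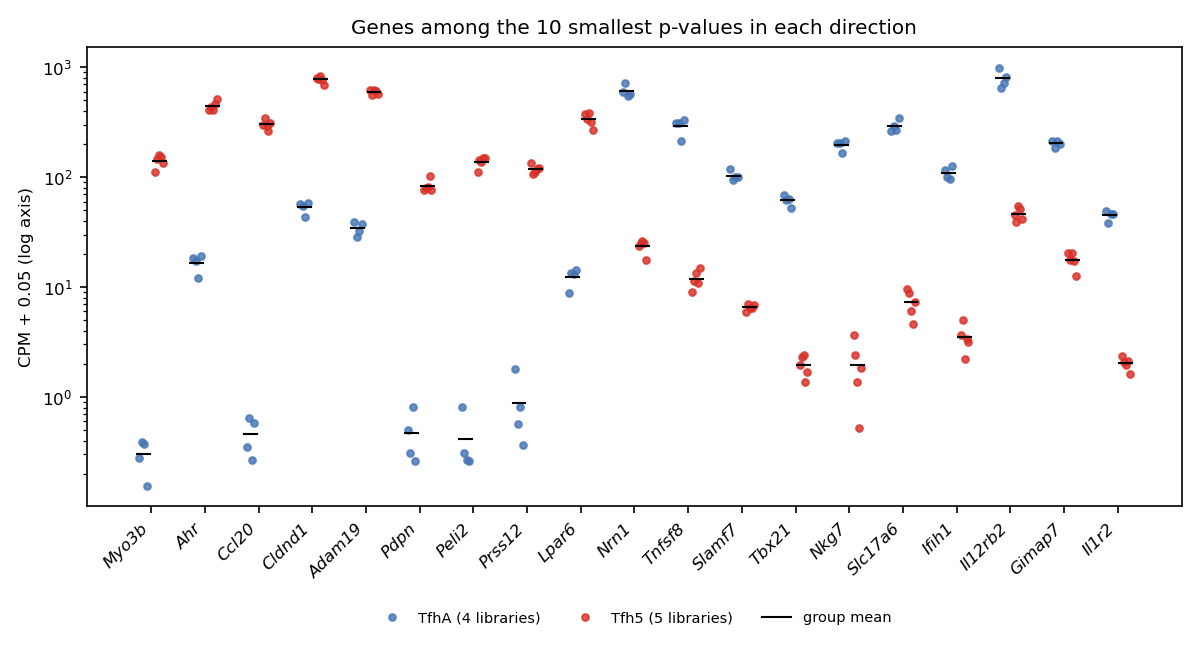
Level in every library, as CPM + 0.05 on a log axis, of the genes named above from the 10 smallest p-values among those that rose (left) and those that fell (right), with bars at the group means. In each gene shown the TfhA and Tfh5 libraries do not overlap, which the choice of genes required.

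Tfh genes did not move as a block. Listed regulators of Tfh cells were more often higher than lower with TGF-β, whereas surface and secreted effectors were more often lower. Neither list was sorted by whether a gene promotes or restrains Tfh cells, and gain or loss of Tfh identity was not tested. The regulators that rose include Foxo1 and Klf2, which are also in the quiescence list below. Of 24 regulator genes, 13 rose, 4 fell and 7 did not pass (median log2 fold change 0.54). Tox2, an HMG-box factor, rose from 2.698 ± 0.934 to 23.2 ± 5.23 CPM, and Pou2af1, a transcriptional coactivator of lymphocytes, 3.75-fold. Id3 and Id2, which restrain E proteins, and Notch2 fell, the last of them 1.43-fold. Prdm1, under 5 CPM in both groups, fell 27.5-fold, from 3.76 ± 0.971 to 0.13 ± 0.11 CPM. Of 22 effector genes, 8 rose, 13 fell and 1 did not pass (median -0.53). Besides Cxcr5, the shared interleukin-6 receptor chain Il6st rose from 22.8 ± 2.197 to 123 ± 33.9 CPM, Angptl2, a secreted glycoprotein, 3.37-fold and the SLAM adaptor gene Sh2d1a 2.203-fold. Cd40lg, the ligand through which T cells license B cells, fell from 169, 148, 108 and 174 CPM in the TfhA libraries to 43.6, 46.7, 44.6, 45.6 and 52.3 CPM in the Tfh5 libraries. The inhibitory receptor gene Btla fell 2.69-fold and Cd200, the ligand of an inhibitory receptor, 4.69-fold.

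Th17 genes rose more often than they fell, among regulators and among effectors. Of 20 regulator genes, 10 rose, 5 fell and 5 did not pass (median 0.33). Ikzf3, which encodes the zinc finger factor Aiolos, read 37, 33.2, 32.5 and 33.8 CPM in TfhA and 466, 704, 659, 704 and 743 CPM in Tfh5, and Nr1d1, the clock repressor REV-ERBα, rose from 1.19 ± 0.718 to 25.4 ± 2.902 CPM. Sox5, an HMG-box factor, fell 6.25-fold, Zbtb32 2.86-fold, Bhlhe40 1.96-fold and Etv6 1.64-fold. Of 21 effector genes, 12 rose, 6 fell and 3 did not pass (median 2.03, and 1.03 without Tfh5 replicate 1). The chemokine gene Ccl20, which draws cells bearing CCR6, read 0.303, 0.597, 0.217 and 0.531 CPM in TfhA and 296, 342, 295, 265 and 309 CPM in Tfh5. Il17re, a receptor chain for interleukin-17C, rose from 0.0805 ± 0.0933 to 21.9 ± 2.67 CPM. Il23r, the receptor chain for interleukin-23 that stabilizes Th17 cells, went the other way: 27.3, 16.4, 35.5 and 24.8 CPM in TfhA against 4.95, 5.71, 9.06, 11.6 and 7.25 CPM in Tfh5 (log2 fold change -1.75 ± 0.21, adjusted p = 1.6e-07). Its partner Il12rb1 fell 1.47-fold, and the cytokine gene Il24 17-fold. Csf2 did not pass.

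Th1 and cytotoxic genes mostly fell. Of 25 Th1 genes, 19 fell, 4 rose and 2 did not pass (median -2.46, or -2.45 with the member without a Tfh5 count set to its bound). Gzmb read 1515, 1304, 1776 and 1295 CPM in TfhA and 16.1, 1.73, 1.699, 1.61 and 3.74 CPM in Tfh5, where replicate 1 held most of the counts (296-fold lower, and 642-fold without Tfh5 replicate 1). Twist1, a basic helix-loop-helix factor of repeatedly stimulated Th1 cells, fell from 36.6 ± 5.06 to 0.9103 ± 0.6901 CPM, and Ly6c2, a surface marker of activated T cells, from 59.2 ± 10.4 to 1.38 ± 0.466 CPM. The 4 that rose are receptors: the interferon-γ receptor chains Ifngr2 (8.22-fold) and Ifngr1 (1.28-fold), the chemokine receptor Cxcr6 (7.697-fold) and the interleukin-18 receptor chain Il18r1 (1.27-fold). The call of Il18r1 was lost without TfhA replicate 2 (adjusted p = 0.0522). Ifngr2, the signalling chain, read 17.6, 18.1, 13.9 and 15.3 CPM in TfhA and 161, 122, 127, 134 and 125 CPM in Tfh5. Of 17 genes for cytotoxic granules and their inhibitors, 9 fell and 4 rose. Nkg7, a granule membrane protein, fell from 205, 204, 166 and 213 CPM in the TfhA libraries to 3.62, 2.35, 1.32, 0.475 and 1.79 CPM in the Tfh5 libraries. Granzyme C (Gzmc) had 1 count in Tfh5 against 19.5 ± 3.85 CPM in TfhA. The cathepsin gene Ctsw rose 10.9-fold, from 32.6 ± 6.99 to 355 ± 16.1 CPM, with Ctla2b and Ctla2a, cathepsin inhibitor-like genes, 9.06-fold and 2.53-fold. Granzyme and Ctla2 genes have close relatives, and how the counting treated reads shared between copies is unstated in the sources used here.

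Regulatory T cell genes were mixed (7 higher, 11 lower and 1 not passing of 19). Il10, an anti-inflammatory cytokine gene, rose from 0.323 ± 0.342 to 9.56 ± 1.39 CPM (25.7-fold, and 46.2-fold without TfhA replicate 1). Itgae, which encodes the integrin CD103, rose 8.39-fold, and Capg, an actin-capping protein, 3.11-fold. The receptor genes Tnfrsf18 (GITR) and Izumo1r (folate receptor 4) fell 2.72-fold and 2.41-fold, and the growth factor gene Areg 2.798-fold.

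Cytokine genes were more often lower in Tfh5: of 29, 8 rose, 17 fell and 4 did not pass. The T cell cytokine gene Il3 had 2 counts over all 5 Tfh5 libraries while TfhA held 21.5 ± 4.04 CPM, which makes the ratio 602-fold (95% counting interval 166 to 4978). The interferon-γ gene Ifng read 17.5, 8.45, 31.2 and 12.1 CPM in TfhA and 1.33, 0.5099, 0.755, 0.664 and 0.897 CPM in Tfh5. Penk, the opioid precursor proenkephalin, was 41.4-fold lower (21.7 ± 5.49 CPM in TfhA, 0.531 ± 0.535 CPM in Tfh5), or 70.9-fold without Tfh5 replicate 1. Receptors for cytokines divided evenly, with 14 higher, 13 lower and 3 not passing of 30. The signalling and the decoy receptor for interleukin-1 went in opposite directions: Il1r1 rose from 5.45, 6.399, 8.34 and 7.32 CPM in the TfhA libraries to 115, 126, 93.1, 103 and 122 CPM in the Tfh5 libraries, while Il1r2 fell from 49.1, 38.1, 46.6 and 46.5 CPM to 2.29, 2.04, 1.89, 2.09 and 1.57 CPM. Il10ra, a chain of the interleukin-10 receptor, fell 4.22-fold.

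The list of chemokine receptors and lipid guidance receptors gave 10 higher, 10 lower and 4 not passing of 24. Gpr15, which guides T cells to the colon, read 0.152, 0.0853, 1.62 and 0.531 CPM in TfhA and 143, 182, 166, 185 and 181 CPM in Tfh5 (315-fold, and 702-fold without TfhA replicate 4). Ccr6, the receptor of CCL20, rose from 4.55 ± 0.782 to 38.9 ± 10.8 CPM. Cxcr3, a receptor of Th1 cells, fell from 123, 100.2, 90.6 and 86.4 CPM in the TfhA libraries to 7.81, 5.91, 5.28, 7.12 and 9.64 CPM in the Tfh5 libraries. Ccr2, a receptor for monocyte chemoattractants, fell 2.904-fold and Gpr183, the oxysterol receptor EBI2, 1.95-fold. Ccr7, the receptor of lymph node homing, did not pass (628 ± 55.1 CPM in Tfh5 and 621 ± 101 in TfhA). Of 12 chemokine genes tested, 8 fell, 1 rose (Ccl20) and 3 did not pass. Those that fell include Ccl3 (27.8-fold), Ccl4 (3.46-fold) and Ccl5 (3.49-fold), chemokines that draw leukocytes to inflamed tissue, and the interferon-induced Cxcl10 (8.37-fold).

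Of 18 integrin genes, 6 rose, 7 fell and 5 did not pass, shares near those of all tested genes (27.4% higher and 30.1% lower). Itga5 rose 2.74-fold and Itgb2, the shared chain of the leukocyte integrins, 1.86-fold. Both chains of the integrin VLA-4 fell, Itga4 2.06-fold and Itgb1 2.05-fold, and Itgb3 fell 5.03-fold. Of 32 genes for matrix and proteases, 15 rose and 14 fell. Postn, the matrix protein periostin, had 1 count in TfhA while Tfh5 held 12 ± 2.53 CPM, which makes the ratio 521-fold (95% counting interval 93.1 to 20596), and all of its TfhA counts were in replicate 1. The proteoglycan gene Dcn had none in Tfh5 against 10.3 ± 2.403 CPM in TfhA, at least 188-fold lower when the Tfh5 group is set to a floor of 3 counts in all. The laminin chain Lama5 fell from 82.3 ± 19.9 to 6.54 ± 1.44 CPM. Of 19 semaphorin and guidance genes, 6 rose and 8 fell, with Sema6d rising from 1.25 ± 0.246 to 54.4 ± 12.9 CPM and Plxnb2, a semaphorin receptor, falling from 13.9 ± 2.64 to 1.396 ± 0.788 CPM.

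In the TNF family 18 genes fell, 9 rose and 2 did not pass of 29. Apart from Tnfsf8, the costimulatory receptor gene Tnfrsf9 (4-1BB) fell 6.68-fold, the OX40 ligand Tnfsf4 3.85-fold and the death ligand Fasl 4.13-fold. Cd40 rose from 1.23 ± 0.326 to 7.14 ± 2.28 CPM, and Tnfrsf1b, the second receptor for TNF, 3.26-fold. Of 24 co-receptor genes, 9 rose and 12 fell. Cd226 and Cd96, which share ligands, went in opposite directions: Cd226 fell from 46 ± 11.7 to 1.27 ± 0.522 CPM, and Cd96 rose from 32 ± 4.499 to 99.3 ± 6.93 CPM. Cd101 rose from 9.32 ± 0.548 to 176 ± 17.4 CPM. Cd86, the costimulatory ligand of CD28, rose from 2.18 ± 0.643 to 48.5 ± 10.4 CPM, while Cd274 (PD-L1) fell 5.15-fold. Cd5 did not pass.

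The receptor Ahr and most of its targets rose. Of 6 tested genes of this list, 5 rose and none fell. Cyp1b1, a monooxygenase induced through AHR, read 0.152, 0.597, 0.758 and 1.06 CPM in TfhA and 33.4, 20.7, 31, 27.6 and 30.1 CPM in Tfh5. The repressor Ahrr rose 7.81-fold and Tiparp, a feedback inhibitor of the receptor, 1.37-fold. Among 26 nuclear receptor genes, 10 rose, 3 fell and 13 did not pass. Pparg, a lipid-sensing receptor, was 24.3-fold lower (15.5 ± 2.25 CPM in TfhA, 0.667 ± 0.843 CPM in Tfh5), or 51.7-fold without Tfh5 replicate 2. Nr4a2 was 3.26-fold lower. In the retinoic acid list (7 tested, 3 higher and 2 lower) the receptor genes Rara and Rarg rose 3.28-fold and 2.02-fold, and the retinoic acid carrier Crabp2 fell 1.46-fold.

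Other transcription factor families held genes of both directions. Of 24 bZIP genes, 11 rose, 7 fell and 6 did not pass. Below Maf, Bach1 rose 2.86-fold and Jun 2.65-fold, and Cebpb fell 4.13-fold. Of 33 HMG, RUNX, ETS and helix-loop-helix genes, 16 rose, 12 fell and 5 did not pass. Sox4, an HMG-box factor, read 4.85, 5.72, 3.897 and 3.93 CPM in TfhA and 53.4, 98.5, 90.1, 85.3 and 118 CPM in Tfh5. The MYC antagonist Mxd4 rose 7.84-fold, Mycn fell from 5.19 ± 2.24 to 0.128 ± 0.0831 CPM, and Nfil3 fell 2.39-fold. Of 26 KLF, IKZF and other zinc finger genes, 7 rose, 7 fell and 12 did not pass, near the share of all tested genes. Klf2, a factor of resting T cells, rose 1.85-fold, and Zeb2, a partner of T-bet, fell 4.94-fold.

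The Notch, Hedgehog and Wnt lists each had members far from the median of their list. In the Notch list (15 tested, 6 higher, 3 lower and 6 not passing), the target and feedback gene Nrarp read 0.0758, 0.427, 0.217 and 0.212 CPM in TfhA and 16.8, 13.9, 14.5, 10.7 and 14.3 CPM in Tfh5, and Rbpj, the DNA-binding partner of Notch, rose 1.901-fold. Hey1, another Notch target, rose from 0.192 ± 0.186 to 14.7 ± 1.59 CPM (75.8-fold, and 117-fold without TfhA replicate 4). In the Hedgehog list (9 tested, 4 higher and 1 lower), the transcription factor gene Gli3 had 3 counts in TfhA and 31.1 ± 6.25 CPM in Tfh5, which makes the ratio 451-fold (95% counting interval 154 to 2190.2). In the fit its fold was 393 with all libraries and 747 without TfhA replicate 2. Sufu, which restrains GLI factors, rose 3.06-fold and the receptor gene Ptch1 1.52-fold. No gene of the Hedgehog list fell in the fit on only the 9 Tfh5 and TfhA libraries. In the Wnt list (20 tested, 10 higher, 3 lower and 7 not passing), the corepressor genes Tle1 and Tle4 rose 13.7-fold and 3.26-fold, and the receptor Fzd7 and its ubiquitin ligase Rnf43 fell 7.73-fold and 3.92-fold. Axin1, a scaffold of the pathway, did not pass.

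Feedback regulators of antigen and cytokine signals were more often higher. Of 25 genes for DUSP, Sprouty and other inhibitors of receptor signalling, 13 rose, 6 fell and 6 did not pass. The MAP kinase phosphatase Dusp4 rose 4.03-fold, the T cell receptor inhibitor Ubash3b (STS-1) 2.87-fold and Rasa3, which switches off small GTPases, 2.36-fold. The phosphatase gene Ptpn6 (SHP-1) fell 1.57-fold. Of 23 genes for STAT and SOCS proteins and relatives, 11 rose, 5 fell and 7 did not pass. Stat5b rose 2.19-fold and Socs5 2.11-fold, while Cish and Socs2, both induced by STAT5, fell 2.38-fold and 1.36-fold. Of 24 RGS and G protein-coupled receptor genes, 10 rose and 11 fell. Rgs10 rose from 238 ± 29.1 to 1116 ± 106 CPM. Of 22 ion channel genes, 8 rose, 8 fell and 6 did not pass, among them Trpm6, a magnesium channel (8.46-fold higher), and the potassium channel Kcna3 (2.09-fold lower).

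In the Bcl-2 family, 8 rose, 5 fell and 2 did not pass of 15. Bcl2, which keeps cells alive, read 521, 481, 622 and 550.3 CPM in TfhA and 54, 56.5, 66.1, 76.6 and 63.3 CPM in Tfh5. Among its killing relatives, Bmf rose 6.69-fold and Pmaip1 (NOXA) 2.21-fold, and the effector Bak1 and the activator Bid fell 1.44-fold and 2.05-fold. Bcl2l11 (BIM) did not pass.

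Genes of proliferation and growth fell nearly throughout. Of 31 DNA replication genes, all fell, by a median log2 fold change of -1.28, and the ranges of the groups did not overlap in 31 of them. Orc1, of the origin recognition complex, fell 3.77-fold, Mcm10 3.61-fold and the ligase Lig1 3.49-fold. All 24 nucleotide and one-carbon genes fell too (median -1.10). Tyms, the thymidylate synthase, fell 3.801-fold. Of 28 cyclin, CDK, CDK inhibitor and E2F genes, 22 fell, 3 rose and 3 did not pass. Cdk1 read 344, 344, 275 and 291 CPM in TfhA and 105, 102, 102, 93.7 and 99.9 CPM in Tfh5. The 3 that rose restrain division: Cdkn1b (p27, 2.18-fold), Rb1 (1.63-fold) and Rbl2 (1.41-fold). Not every gene that restrains division rose, since the inhibitor Cdkn1a fell 5.26-fold. Of 28 ribosome biogenesis genes, 26 fell and 1, Wdr12, rose. Genes of quiescence gave the opposite picture, with 14 higher, 2 lower and 5 not passing of 21 (median 1.06). Pik3ip1, an inhibitor of PI3 kinase, rose from 28.5, 28, 27.2 and 21.1 CPM in the TfhA libraries to 110.4, 86.8, 90.5, 91.1 and 84.8 CPM in the Tfh5 libraries. The antiproliferative gene Btg1 rose 3.46-fold and Foxo1 3.11-fold.

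Among metabolic lists, fatty acid oxidation, the transporters and the antioxidant genes gave counts near the background of all tested genes (27.4% higher and 30.1% lower). In the citric acid cycle 10 fell, 2 rose and 10 did not pass of 22, with pyruvate carboxylase (Pcx) falling from 37.5 ± 7.58 to 6.11 ± 1.36 CPM. Fatty acid oxidation gave 6 higher and 7 lower of 20. Cpt1a, the entry enzyme of fatty acids into mitochondria, rose 1.85-fold, and Acadl, an acyl-CoA dehydrogenase, fell 1.79-fold. Transporters for amino acids and sugars gave 6 higher and 7 lower of 20. The glucose carrier genes Slc2a3 and Slc2a1 fell 4.38-fold and 2.87-fold, the leucine carrier Slc7a5 3.33-fold, and Slc16a10, a carrier of aromatic amino acids, rose 6.82-fold. Of 28 autophagy and lysosome genes, 16 rose, 1 fell and 11 did not pass. The starter kinases Ulk1 and Ulk2 rose 2.98-fold and 2.32-fold, and the autophagosome marker Map1lc3b 2.11-fold. Antioxidant genes gave 6 higher, 7 lower and 10 not passing of 23, with the peroxidases Prdx6 and Gpx1 rising 2.295-fold and 1.88-fold and glutathione reductase (Gsr) falling 2.31-fold.

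Chromatin genes gave 10 higher, 9 lower and 10 not passing of 29. The alternative catalytic subunits of Polycomb complex PRC2 moved oppositely, Ezh2 falling from 338, 315, 504 and 423 CPM in the TfhA libraries to 160.1, 158, 156, 154 and 147 CPM in the Tfh5 libraries, and Ezh1 rising from 44.8, 44.7, 49.8 and 41.7 CPM to 74.9, 107, 103, 90.9 and 89 CPM. The maintenance methylation genes Dnmt1 and Uhrf1 fell 2.58-fold and 4.12-fold, Dnmt3b rose 2.201-fold, and the histone demethylase Kdm6b rose 2.41-fold. Of 20 type I interferon response genes, 19 fell and none rose (median -4.37). Isg15, a ubiquitin-like protein, read 17.2, 11.9, 19.2 and 14.4 CPM in TfhA and 0.666, 0.5099, 0.283, 0.285 and 0.0747 CPM in Tfh5. Irf9 did not pass in the fit on all libraries, and passed as higher without Tfh5 replicate 5 (adjusted p = 0.0451).

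**Figure D5:**
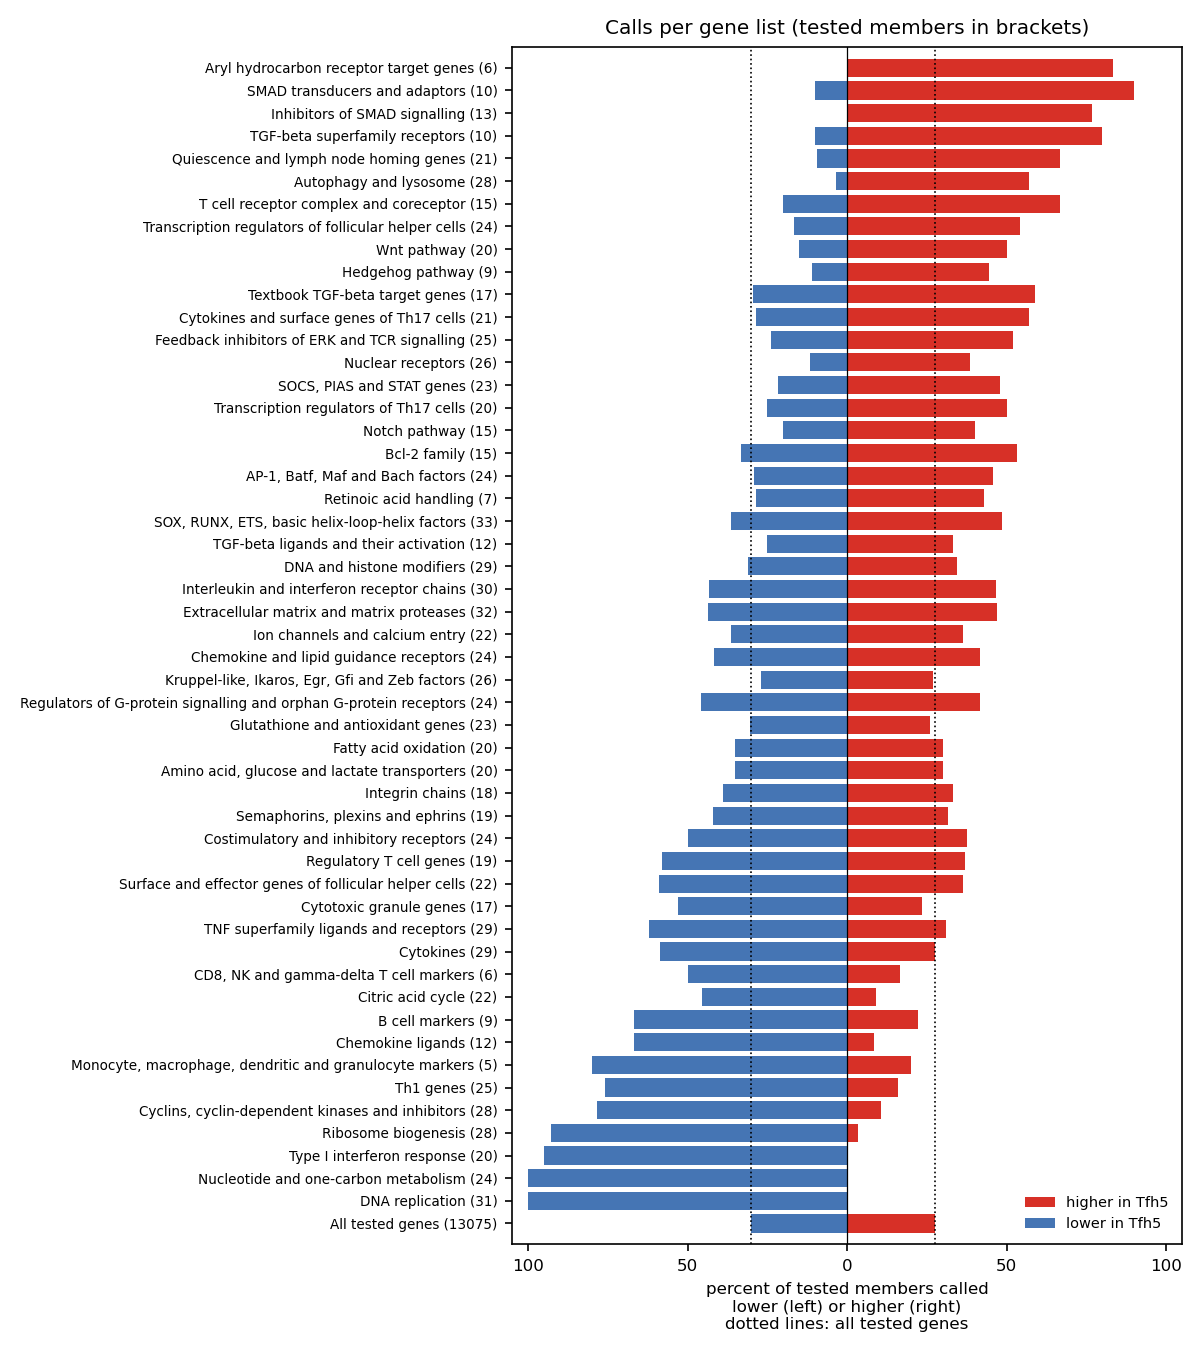
Percent of the tested members of each gene list that fell (left) or rose (right) in Tfh5, with the number tested in brackets and dotted lines at the shares of all 13075 tested genes (27.4% higher and 30.1% lower). DNA replication (31 of 31 lower) and nucleotide genes (24 of 24 lower) lie at one end, and receptors and SMAD transducers of the TGF-β pathway (8 of 10 and 9 of 10 higher) near the other.

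Genes of the T cell receptor complex and its proximal signalling were higher in 10, lower in 3 and not passing in 2 of 15. The kinase gene Zap70 rose 2.03-fold and the constant region gene Trac 1.73-fold, while Thy1, a surface glycoprotein of T cells, fell 1.54-fold. The summed level of this list was 8969 to 9857 CPM in Tfh5 and 6658 to 7847 CPM in TfhA.

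Markers of other cells that a culture or gate could hold were measured beside these results. The γδ T, CD8 T and NK cell list summed to 74.7 to 128 CPM in Tfh5 and 99.1 to 182 CPM in TfhA. It lacks the γ chain constant genes Tcrg-C1, Tcrg-C2 and Tcrg-C4, whose names were not found among the counted genes. Of its 6 tested genes 3 fell, 1 rose and 2 did not pass. The γδ receptor gene Trdc fell from 53.5 ± 19.3 to 11.8 ± 3.19 CPM and Klrk1, the receptor NKG2D, from 23.1 ± 6.53 to 0.916 ± 0.703 CPM, in the same libraries in which Gzmb and Nkg7 were low. Klrd1 rose 1.83-fold, and the NK cell marker Ncr1 had no count. B cell markers summed to 199 to 244 CPM in Tfh5 and 90.5 to 117 CPM in TfhA, and of 9 tested 2 rose, 6 fell and 1 did not pass. Ighm made up most of this sum (211 ± 17.1 CPM in Tfh5 and 65.8 ± 8.64 in TfhA), while Cd79a was at 0.672 ± 0.3505 and 1.03 ± 0.317 CPM. The B cell factor Ebf1 fell from 17.2 ± 4.45 to 0.526 ± 0.442 CPM. Myeloid markers summed to 68.4 to 132 CPM in Tfh5 and 88 to 149.8 CPM in TfhA. Of 22 such names 5 were tested (1 higher and 4 lower) and 10 had no count, among them the defining genes Lyz2, Adgre1 and S100a8. The MHC class II genes Cd74 and H2-Ab1 fell 8.76-fold and 6.52-fold, and H2-Aa had no count in Tfh5 against 6.99 ± 1.16 CPM in TfhA. The part of such cells in the results above was not tested.

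The 9 motifs were searched in the 250-base windows on both strands, in 32851 windows of all genes and in 12610 windows of 9911 tested genes. The windows of genes at least 2-fold higher or lower in Tfh5 are part of the windows of tested genes, so the share among tested genes is given beside the share of all windows. The short SMAD site CAGAC was in 42.2% of all windows and 40.4% of those of tested genes, with 45.2% for higher genes and 39% for lower genes. The longer SMAD box GTCTAGAC was rare, in 0.167% of all windows and 0.206% of those of tested genes, with 3 windows of higher genes (0.219%) and 2 of lower genes (0.121%). The CAGA element AGCCAGACA, which contains the short site, was in 0.301% of all windows and 0.206% of those of tested genes, with 3 windows of higher genes (0.219%) and 7 of lower genes (0.424%). The ROR core AGGTCA was in 14% of all windows but 10.8% of those of tested genes, and higher and lower genes both lay above the latter, at 13.1% and 12.4%. The short MAF site TGCTGA stood at 16.1% of all windows and 12.6% of those of tested genes, with 13.5% for higher and 15.2% for lower genes. For the AP-1 site TGAGTCA the shares in the same order were 4.46%, 3.21%, 4.09% and 4.12%, and for the T-box site TCACACCT 1.12%, 0.73%, 0.877% and 0.97%. For the STAT site TTCNNNGAA they were 7.02%, 5.98%, 5.41% and 7.52%. The E2F site TTTGGCGC was in 0.417% of all windows and 0.777% of those of tested genes, with 5 windows of higher genes (0.365%) and 13 of lower genes (0.788%). No test was applied to these shares. Short motifs of this kind occur often by their letters alone, so that a match in the windows of Il17a, Il17f or Gzmb printed above is a description of the sequence.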

How the data were processed

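RNA of 14 libraries was counted per gene. The deposited values are raw counts under Entrez gene identifiers, not normalized by the authors. The submitters' processing notes name STAR 2.7.2b, featureCounts 1.6.4 and mm10. The sources used here do not give annotation, strand setting or the handling of reads with several matches, so genes with near-identical copies, overlapping genes and antisense genes are uncertain. Of 27179 identifiers, 25275 have a symbol in RefSeq GRCm38.p6, which also gave positions and promoters. Identifiers without one held 1.91% of counts.

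With R 4.3.3, edgeR 4.0.16 and limma 3.58.1, all 14 libraries entered one fit with a mean per group (filterByExpr, 13075 genes; TMM; quasi-likelihood F test, Benjamini-Hochberg, threshold 0.05). SE is the log2 fold change divided by the square root of F. The common biological coefficient of variation was 14.25%, and errors come from the spread between libraries. Counting intervals are at 95% and cover counting error only, as does the floor of 3 counts.

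The members and the 51 gene lists were chosen with earlier results of these data known. Genes named are a panel of 14, the 10 smallest p-values per direction (no overlap of libraries, higher group at 10 CPM or more), up to 4 called members per list and direction (at least 5 CPM) by size of change, up to 2 uncalled members of highest level, every member of the 4 TGF-β pathway lists, and the 6 near-equal genes of highest level. Prdm1, markers of other cells named at 0 or at low level (Lyz2, Adgre1, S100a8, Ncr1) and the genes of the closing section were chosen after their values were seen. Some genes that this rule picked are not reported here. Alternatives were RLE and upper-quartile scaling, DESeq2 1.42.0, no filter, only the 9 libraries, replicate number as a block, and each library left out.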

Additional observations from a re-analysis of the deposited data

Results flagged for a closer look

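In each of 248 named genes, each group of 4 or 5 libraries was searched for a library that stood apart from the rest of its group by Dixon's criterion, with an offset of 0.1 CPM. Chance flags about 1 in 20 such sets, and 31 of 496 sets were found, 6.25%. Tfh5 replicate 1 stood below the others of its group in Bmpr2 (23.8 CPM), Eef2 (1770 CPM), Ikzf3 (466 CPM), Rora (28.3 CPM), Slc2a1 (29.8 CPM) and Ulk2 (73.2 CPM) and above them in Gzmc (0.0952 CPM), Itga4 (106 CPM) and Pik3ip1 (110 CPM). Tfh5 replicate 3 stood below the others of its group in Ski (408 CPM). Tfh5 replicate 4 stood below the others of its group in Areg (1.14 CPM) and Tnfrsf18 (56.1 CPM) and above them in Foxo1 (675 CPM) and Pdpn (102 CPM). Tfh5 replicate 5 stood below the others of its group in Gsr (51.5 CPM) and Nrn1 (17.6 CPM). TfhA replicate 1 stood above the others of its group in Peli2 (0.758 CPM), Postn (0.0758 CPM) and Tle1 (3.48 CPM). TfhA replicate 2 stood below the others of its group in Zfyve16 (17.6 CPM) and above them in Tox2 (4.1 CPM) and Uhrf1 (106 CPM). TfhA replicate 4 stood below the others of its group in Eng (7.15 CPM), Nedd4l (9.42 CPM), Nt5e (12.9 CPM) and Tnfsf8 (211 CPM) and above them in Dusp4 (47.1 CPM). TfhA replicate 5 stood below the others of its group in Bak1 (133 CPM), Pik3ip1 (21.1 CPM), Tnfrsf1b (41.5 CPM) and Zbtb32 (18.5 CPM). The gap was wide for Rora, where the other 4 Tfh5 libraries read 77 to 114 CPM. Gzmc and Postn rest on a single count in the library named.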

How the results depend on the processing

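The counts of genes that rose (3586) and fell (3934), and of those past 2-fold (1381 and 1716), stayed within 1.5 times their value in every alternative run. DESeq2 gave 3676 and 4002, no filter on low counts 3766 and 4151, and the fit on only the 9 libraries 3378 and 3529. Past 2-fold, the fit on only the 9 libraries gave 1336 higher and 1462 lower, of 12371 tested genes. In that fit 0 SMAD transducers, 0 Hedgehog genes and 1 gene of the retinoic acid list were lower, against 1, 1 and 2 with all 14 libraries. Leaving out each library gave 3301 to 3646 genes higher and 3707 to 3894 lower. The shared number of calls was 6863 to 7516 of 7520 over all alternatives, and no scaling moved the median log2 fold change of all genes by over 0.1. Same-numbered libraries of the groups did not deviate together (correlations of deviations -0.048, 0.0481, 0.0176 and -0.0361). These correlations cannot exclude that a number marks a shared animal or culture, and the numbers were not treated as a pairing. With replicate number as a block, 3432 rose and 3826 fell. In that edgeR fit Foxp3 passed (adjusted p = 0.00485) and Bmpr1a did not (adjusted p = 0.0717, and 0.0547 in the fit on 9 libraries). The named genes that changed sign had not passed the threshold, and their log2 fold changes were Actb (-0.00453 with the block, -0.0934 to 0.046 with a library left out), Bambi (-0.165 with the block, -0.247 to 0.308 with a library left out), Bcl2l11 (-0.00178 to 0.0834 with a library left out), Ccr7 (-0.0554 to 0.107 with a library left out), Eef2 (-0.0545 to 0.117 with a library left out), Rplp0 (0.00622 with upper-quartile scaling, 0.0101 with no filter on low counts, -0.0765 to 0.109 with a library left out), Satb1 (0.00953 with upper-quartile scaling, 0.012 with no filter on low counts, -0.0415 to 0.0534 with a library left out) and Tgfb1 (-0.0845 to 0.0996 with a library left out). Counts per list moved by over 1.5 times in 11 lists, where the count was at most 3. The share of genes called was lowest under 1 CPM, and the part of sequencing depth in this was not tested.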

Other observations

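The genes in these 2 paragraphs were chosen after their values were seen. Genes of the circadian clock, a feedback loop in which CLOCK and BMAL1 drive repressors of their own activity, moved in both directions: of 14 tested, 5 rose, 6 fell and 3 did not pass (adjusted p under 0.05, edgeR, Benjamini-Hochberg over all genes, against 27.4% higher and 30.1% lower of all tested genes). The activator Arntl (BMAL1) read 21.1, 23.4, 26.2 and 20.2 CPM in TfhA replicates 1, 2, 4 and 5 and 93.6, 101, 91.5, 98.8 and 82 CPM in Tfh5 replicates 1 to 5 (4.11-fold higher). Nr1d1 and Nr1d2, repressors of Arntl, rose 20.3-fold and 5.58-fold. The repressor gene Per2 fell from 8.33, 9.73, 9.42 and 10.4 CPM in the TfhA libraries to 1.24, 1.53, 1.42, 2.28 and 1.57 CPM in the Tfh5 libraries. The sources used here do not give the hour of harvest.

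The Gimap genes, GTPases of lymphocyte survival that lie side by side on mm10 chromosome 6, did not move together. Of 8 tested, 3 rose, 3 fell and 2 did not pass. Gimap7 fell from 213, 185, 215 and 201 CPM in the TfhA libraries to 20.3, 17.5, 20.3, 17.4 and 12.5 CPM in the Tfh5 libraries, the sharpest fall of the 8.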
